A study of Homo sapiens with 28 samples.

Results

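MYC peaks are places in the genome where DNA fragments recovered with an antibody to MYC pile up in chromatin immunoprecipitation followed by sequencing (ChIP-seq). All peaks of the pair of MYC lists were taken, 13589 from GP5d cells with control siRNA and 7264 from GP5d cells with RAD21 siRNA. Together they made 20853 of the 393268 peaks in the 22 lists of the study, which asked how the binding of transcription factors in a colorectal cancer cell line depends on cohesin. A control MYC peak counted as kept where it shared 1 bp or more with a siRAD21 MYC peak, and as lost where it did not. A siRAD21 MYC peak without an overlapping control MYC peak was called new. The classes were thus defined by the presence of a peak in the other list, and width, tags, chromosome and the other targets were then described within them.

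MYC is a transcription factor of the basic helix-loop-helix leucine zipper family. It binds DNA as a dimer with MAX, with a preference for E-box sequences, and is found mainly at active promoters and enhancers, where it raises the transcription of genes for growth, ribosome production and metabolism. In the intestine, MYC is a target of Wnt signalling, and its level is often raised in colorectal tumours. Cohesin is a ring of SMC proteins closed by RAD21. It is loaded by NIPBL, extrudes chromatin loops, and halts at sites bound by the zinc finger protein CTCF.

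GP5d is an established human colon adenocarcinoma line. In the control group the cells received 50 nM of a neutral siRNA without a target, and in the siRAD21 group 50 nM of siRNA against RAD21. Both groups were harvested after 72 hours, and the labels name no other genetic change in either. Each group was 1 MYC library, so nothing between the siRNAs could be tested, and every interval below covers counting error only. The knockdown was followed by qPCR and western blotting per the labels' protocols, and those data were not analysed here. The group came from the title and description of each library. The siRNA tag of the siRAD21 MYC library holds RAD with another number, and these numbers rise over the siRAD21 libraries. The titles name rabbit as the antibody host of MYC and both libraries were called against rabbit immunoglobulin G (IgG), whereas the catalogue number in the labels is, from general knowledge, that of a mouse antibody. Which antibody was used was therefore not settled.

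The depth of the MYC libraries was nearly equal after filtering, but not before it and not in their backgrounds. Before filtering, the control library held 13545723 tags and the siRAD21 library 26879136, of which 29% and 64% were repeats of a position already counted. After filtering they held 9603820 and 9801218 tags, a ratio of siRAD21 to control of 1.02. The rabbit IgG libraries against which peaks were called held 8916252 filtered tags in control cells and 4101535 in siRAD21 cells (ratio 0.460). The share of filtered tags that lay in MYC peaks was 9.05% under control siRNA, over 25025337 bp, and 2.75% under RAD21 siRNA, over 10508461 bp. Inside peaks there were 34.7 and 25.6 tags per kb. The part of the difference in IgG depth and in repeated tags in the results below was not tested.

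Most MYC peaks of the control cells were not called under RAD21 siRNA. Of the 13589 control peaks, 3930 were kept, 28.9% (95% Clopper-Pearson interval 28.2 to 29.7), and 9659 were lost, 71.1% (70.3 to 71.8). Over the control peaks of all 11 targets, 49.4% were kept and 50.6% lost, and over the 10 targets other than MYC 50.7% were kept. Of the 7264 siRAD21 MYC peaks, 3275 were new, 45.1% (43.9 to 46.2), against 26.9% of the siRAD21 peaks of all 11 targets. These pooled shares are weighted towards the long lists of H3K4me1 (61108 control peaks, 74.3% kept) and CTCF (44027, 63.1% kept). SMC3 (28.4%), NIPBL (17.4%), RFX2 (13.2%) and KLF5 (10.2%) kept a smaller share than MYC. The size of the loss depended strongly on which peaks entered. At a false discovery rate (FDR, from calls with ChIP and IgG exchanged) under 5%, all 13589 control peaks but only 936 siRAD21 peaks (12.9% of that list) remained, and 6.15% of the control peaks were kept. With the 7264 strongest peaks of each list, 41.0% were kept.

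Strong MYC peaks were kept more often than weak ones. Strength here is −10 × log10 of the p-value that the authors' peak caller gave each peak, with 50 as the lowest value in the lists. In 5 strata of about equal size, from the weakest control peaks to the strongest, the kept share was 12.7%, 15.9%, 23.2%, 32.3% and 60.4%. All of the 100 strongest control peaks were kept, as were 88.2% of the strongest 500 and 78.1% of the strongest 1000. From the siRAD21 side the order was the mirror image, with 68.3%, 58.7%, 48.1%, 34.7% and 15.7% of peaks new from the weakest stratum to the strongest. Of the 100 strongest siRAD21 peaks 2 were new, and of the strongest 500 there were 28. Among the kept siRAD21 peaks, 835 had an FDR under 5%, or 20.9%, and among the new ones 101, or 3.08%.

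**Figure D1:**
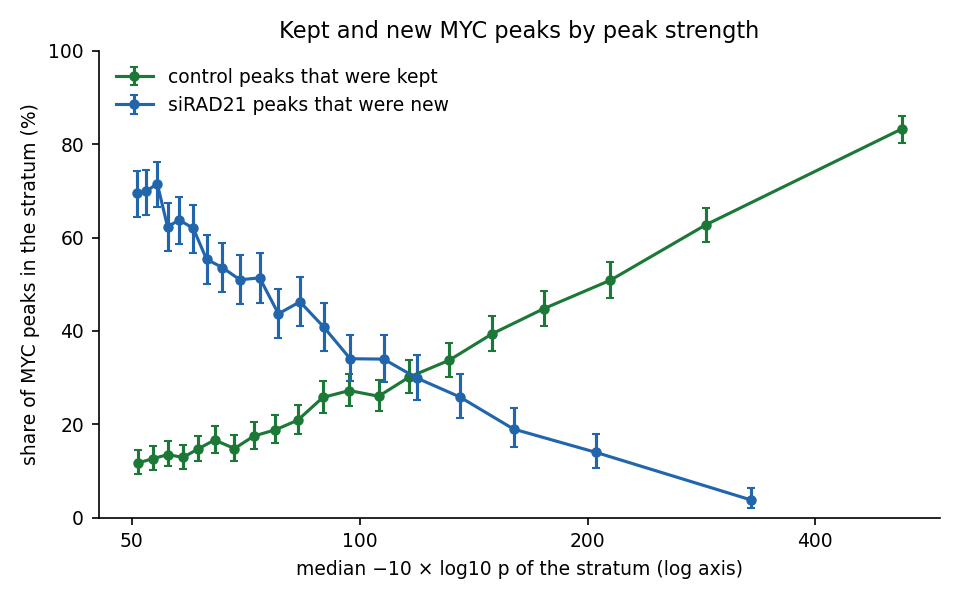
Share of control MYC peaks that were kept and of siRAD21 MYC peaks that were new (y axis, percent) in 20 strata of peak strength, placed at the median −10 × log10 p of the stratum (x axis, log scale). Bars are 95% Clopper-Pearson intervals. The kept share was 11.8% in the weakest stratum and 83.2% in the strongest, and the new share 69.5% and 3.86%.

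Kept control peaks were wider and held more tags than lost ones. Their median width was 2097 bp (quartiles 1592 and 2652) against 1504 bp (1182 and 1991) for lost peaks, and their median tag count 84 (54 and 130) against 38 (24 and 60). Fold enrichment, the linear ratio of tags to the local background, differed much less, with medians of 8.07 in kept and 7.43 in lost peaks. The 3930 kept peaks carried 46.6% of all tags in control MYC peaks. Among siRAD21 peaks, kept peaks had a median width of 1516 bp (1178 and 1952) and 38 tags (26 and 58), and new peaks 1083 bp (889 and 1401) and 20 tags (15 and 30). New peaks were thus the narrowest and most sparsely covered of the 4 classes, at a median of 18.6 tags per kb, where lost peaks had 24.2, kept siRAD21 peaks 24.7 and kept control peaks 39.1.

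The gap in width and tags was also present between peaks of like p. In the weakest stratum of control peaks the median was 1712 bp and 47 tags for kept peaks and 1227 bp and 24 tags for lost ones. In the strongest stratum it was 2377 bp and 128 tags against 2121 bp and 87.5 tags. Fold enrichment went the other way in the 4 weaker strata, with 5.40 in kept and 6.43 in lost peaks of the weakest, and was higher in kept peaks of the strongest, at 11.6 against 10.9. At a given p, kept peaks were therefore broader and held more tags, with a lower fold enrichment in all but the strongest stratum. The p, tag count and fold enrichment of a peak come from the same tags, so these are not separate traits. A wider peak also offers more bases for a 1 bp overlap. With kept defined by summits within 250 bp, the kept share was 22.6%, and kept peaks were 1.30 times as wide as lost ones, against 1.39 times by overlap.

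**Figure D2:**
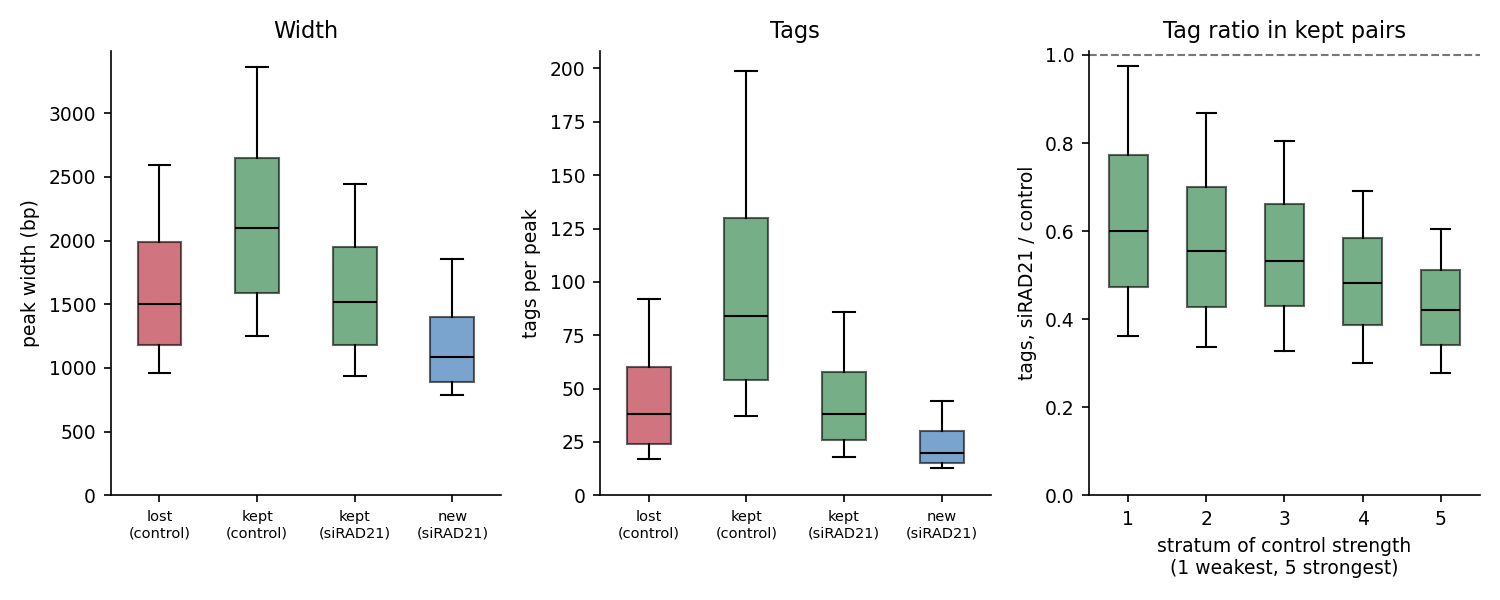
Width in bp (left) and tags per peak (centre) of lost, kept and new MYC peaks, and the ratio of siRAD21 to control tags in kept pairs by stratum of control strength (right, dashed line at 1). Boxes span the quartiles with the median as a line, and whiskers the 10th and 90th percentiles. Kept control peaks lie highest in both left panels, and the median tag ratio was 0.600 in the weakest and 0.420 in the strongest stratum.

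Kept peaks held fewer tags under RAD21 siRNA at almost the same filtered depth. Kept peaks were joined one to one by the nearest summit into 3908 pairs. The median ratio of siRAD21 to control tags was 0.474 (quartiles 0.372 and 0.593), and 93 pairs, 2.38%, had more tags under RAD21 siRNA. Part of this went with narrower peaks, since the width ratio had a median of 0.766, but tags per kb were also lower, with a median ratio of 0.634. Fold enrichment did not show the same shift. Its ratio had a median of 1.01 (0.727 and 1.42) and exceeded 1 in 51.2% of pairs. In these pairs tags were lower in nearly all, while their enrichment over the local background estimated with the IgG library of each siRNA was as often higher as lower. How much of this contrast goes with the shallower siRAD21 IgG library was not tested.

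The tag ratio was lowest where the control peak was strongest. From the weakest to the strongest stratum of control peaks the median ratio was 0.600, 0.555, 0.531, 0.481 and 0.420. The median control peak of the strongest stratum held 128 tags and its siRAD21 partner 54, and in the weakest stratum the medians were 47 and 28. A pair entered only where both peaks passed the peak caller, and this bounds the ratio from below where the control peak is weak. The strata were set by the control peak, whose tags are also the divisor, and this by itself can lower the ratio at strong control peaks. Strata of siRAD21 strength were not run, so the gradient cannot be read as a trait of strong sites. Positions within pairs were close, in part by construction, since a pair needed overlapping peaks and was joined by the nearest summit. The summits of a pair lay a median of 81 bp apart, 78.5% lay within 250 bp, and 61.0% of the siRAD21 peaks lay wholly inside their control peak. Splitting was rare, with 83 control peaks overlapping 2 siRAD21 peaks and 24 siRAD21 peaks overlapping 2 control peaks. Lost peaks were seldom displaced by a short distance, since 3.09% of them had a siRAD21 MYC peak within 1000 bp and 13.7% within 10000 bp.

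Single regions show the range (hg18, the build of the authors' lists). Genes at these regions are not named, because no annotation of that build was used here. The strongest control MYC peak, chr3:52694842-52697340, held 361 tags at 124-fold enrichment under control siRNA and 173 tags at 111-fold under RAD21 siRNA. At chr7:1747302-1750041 the control peak held 468 tags and the siRAD21 peak 129, with fold enrichments of 36.4 and 40.4. The peak at chr17:46584821-46587390 held 410 and 165 tags, and the same 6 other targets, RAD21, SMC3, NIPBL, CTCF, H3K4me1 and JUND, had peaks there under both siRNAs. At chr12:52958678-52962137 the tags were 417 and 138 and the enrichment 33.9-fold and 9.62-fold. Tags were thus lower at all 4 sites, while enrichment was not lower at the chromosome 7 site and was much lower at the chromosome 12 site.

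The strongest lost control peak with no siRAD21 MYC peak within 1000 bp, chr3:185333676-185336973, held 261 tags at 20.3-fold enrichment, and CTCF and H3K4me1 had peaks there under both siRNAs. At chr16:51643461-51647977, a 4517 bp peak of 220 tags, RAD21, SMC3 and NIPBL had peaks only in the control lists, H3K4me1 and HNF4A in both, and CTCF and JUND only in the siRAD21 lists. The peak chr19:63762007-63763853, with 203 tags, had H3K4me1 as the sole other target under either siRNA. At chr15:81215164-81217824, with 169 tags, RAD21, SMC3, NIPBL and CTCF all had control peaks and none of them had a siRAD21 peak. By contrast, RAD21, SMC3, NIPBL and CTCF had peaks under both siRNAs at chr10:103530181-103534680, where the control MYC peak held 347 tags. Loss of a strong MYC peak was therefore seen both where cohesin peaks were lost and where they were kept. The lost peak with the most tags, 883 at 4.61-fold enrichment, lay on the unplaced sequence NT_113901 and not on a chromosome.

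The strongest new peak, chr22:40011112-40012706, held 68 tags at 42.3-fold enrichment. H3K4me1 alone had a control peak there, and RAD21, NIPBL, CTCF, H3K4me1, KLF5 and JUND had siRAD21 peaks. At chr16:1952763-1956295, a new peak of 110 tags, no other target had a control peak, and SMC3, NIPBL, H3K4me1 and JUND had siRAD21 peaks. The new peak chr11:74787600-74789318, with 89 tags, likewise had no control peak of any target and had NIPBL, CTCF and JUND peaks under RAD21 siRNA. At chr7:99534211-99537839, the new peak held 162 tags, and H3K4me1 and RFX2 had peaks under both siRNAs. All 8 of the strongest new peaks had a siRAD21 JUND peak and none had a control JUND peak. Among all siRAD21 MYC peaks, 61.3% had a siRAD21 JUND peak and 9.60% a control one, and among the new ones 49.5% and 4.18%. The siRAD21 JUND list held 12319 peaks and the control list 4678.

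Control peaks in the widest of 5 strata of width were kept at 52.4% and those in the narrowest at 11.2%. The broad control peaks named here were lost or overlapped narrower siRAD21 peaks. The widest, chr1:233158770-233168199, spanned 9430 bp with 439 tags and was kept as a 3212 bp peak of 92 tags. The second widest, chr19:48973167-48982151, with control peaks of 9 other targets and 309 tags, was lost. At chr5:180601357-180607639, 530 control tags over 6283 bp were set against a pair of siRAD21 peaks, the nearer of which held 177 tags over 2703 bp. Among the 1345 pairs with at least 50 tags in both peaks, the lowest tag ratio was 0.191 at chr17:8090926-8094990, with 262 and 50 tags. The highest was 1.39 at chr7:27167008-27168786, with 51 and 71 tags, where the siRAD21 peak was also wider, at 3350 bp against 1779 bp.

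Cohesin and its loader were next examined at MYC peaks. Under control siRNA, RAD21 peaks overlapped 26.9% of kept and 35.3% of lost MYC peaks, SMC3 33.0% and 41.5%, and NIPBL 39.2% and 42.5%. All 3 were thus more frequent at MYC peaks that were lost, although MYC peaks with them were somewhat stronger, with a median −10 × log10 p of 91.1 with and 83.9 without RAD21. The kept shares were therefore compared within the 5 strata of strength, as Mantel-Haenszel differences in percentage points with 95% intervals. MYC peaks with a control RAD21 peak were kept less often (−9.28, −10.7 to −7.83). For SMC3 the difference was −9.56 (−11.0 to −8.15) and for NIPBL −8.62 (−10.1 to −7.18). Within strata of tags in place of p, the RAD21 difference was −4.35 (−5.76 to −2.94) and that of SMC3 −4.95 (−6.32 to −3.59). Without strata, that of NIPBL was −2.76 (−4.30 to −1.22).

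Kept shares were lower at sites with 2 or 3 of RAD21, SMC3 and the loader NIPBL than at sites with 0 or 1. MYC peaks with none of RAD21, SMC3 and NIPBL, 5331 in number, were kept at 32.4%, where their strength alone would give 26.6%. With 1 of them the share was 31.6% (30.5% from strength), with 2 it was 23.1% (28.2%), and with all 3 it was 23.9% (33.3%) of 2156 peaks. The cohesin subunits largely mark the same sites. Within RAD21-bound MYC peaks, SMC3 made no difference that could be resolved (−0.885, −3.98 to 2.21), while within RAD21-free peaks it did (−9.34, −11.5 to −7.16). The NIPBL difference was −7.04 (−9.48 to −4.61) in RAD21-bound and −6.66 (−8.51 to −4.82) in RAD21-free peaks.

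CTCF, at which loop extrusion halts, stood apart from cohesin. It overlapped 30.6% of kept and 25.1% of lost MYC peaks, and at like strength MYC peaks with CTCF were kept slightly more often (2.70, 1.05 to 4.34). This value was not stable. It was −0.583 with both MYC lists cut at −10 × log10 p of at least 100, and −0.326 within strata of tags. Where the CTCF summit had to lie within 250 bp of the MYC summit it was −0.566, and each of these intervals held 0. Splitting by RAD21 gave larger values. Of the 1303 MYC peaks with CTCF but no RAD21, 45.2% were kept (34.2% from strength), against 26.3% (29.4%) of 2326 with both, 20.8% (30.4%) of 2139 with RAD21 alone, and 29.2% (27.5%) of 7821 with neither. The peaks with CTCF but no RAD21 also held a median of 82 tags over 2110 bp, against 46 tags over 1637 bp for those with both, and this split was not compared at like tags. The RAD21 difference was −14.5 (−17.6 to −11.4) within CTCF-bound and −11.4 (−13.3 to −9.56) within CTCF-free MYC peaks. It was thus of the same sign and similar size at MYC sites with and without CTCF.

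Of the sequence-specific factors, HNF4A, a nuclear receptor that maintains the intestinal epithelial programme, went with the lowest difference among the 10 targets in the 5 strata of p. Control HNF4A peaks lay at 16.2% of kept and 27.1% of lost MYC peaks. MYC was kept at 19.6% of 3260 sites with HNF4A and 31.9% of 10329 without, a difference at like strength of −12.8 (−14.3 to −11.3). Over the alternative strata, overlap rules and selections of peaks this difference lay between −15.7 and −11.2. It was not the lowest in each, since REST had −17.7 (−23.5 to −11.9) against −13.5 for HNF4A where the target's summit had to lie within 250 bp of the MYC summit. It was −10.2 (−12.6 to −7.83) within RAD21-bound and −11.8 (−13.9 to −9.79) within RAD21-free MYC peaks. Conversely, the RAD21 difference was −5.18 (−7.81 to −2.55) at HNF4A-bound and −7.93 (−9.70 to −6.17) at HNF4A-free peaks. MYC peaks with both RAD21 and HNF4A were kept at 18.3%, where strength would give 31.3%, and those with neither at 34.0%, where it would give 28.7%.

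REST, a repressor of neuronal genes, lay at only 171 control MYC peaks, of which 33 were kept, 19.3% (difference −11.3, −16.7 to −5.87). That interval held 0 with both MYC lists cut at −10 × log10 p of at least 100 (−6.91, −15.4 to 1.60). JUND, a subunit of the AP-1 dimer, had a difference of −6.50 (−8.44 to −4.56), but its control list held no peak with an FDR under 5%, nor did that of NIPBL. Without strata the JUND interval held 0 (−1.34, −3.44 to 0.751). KLF5, a Krüppel-like factor of proliferating crypt cells, differed by −2.47 (−4.13 to −0.807). RFX2, a factor known for ciliary genes, was the sole target other than CTCF with a difference above 0, at 9.04 (4.56 to 13.5), and 193 of its 422 MYC sites, 45.7%, were kept. Its interval held 0 within strata of tags (3.47, −0.963 to 7.91).

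H3K4me1, the mark of enhancers and promoter flanks, overlapped nearly the same share of kept and lost MYC peaks, 86.7% and 85.8%, with a difference at like strength of −2.90 (−4.93 to −0.872). The catalogue number of that antibody is, from general knowledge, one to histone H3 irrespective of modification. The sign for H3K4me1 and KLF5 was the opposite without strata, at 1.52 (−0.657 to 3.69) and 3.04 (1.28 to 4.80). In all, 8 of the 10 targets had intervals below 0 and 2 above. MYC peaks with H3K4me1 as the sole other target, 2545 in number, were kept at 31.7% (26.0% from strength). The 668 without any other target were kept at 26.6% (22.8%). With 1 and 2 other targets, the kept shares of 32.1% and 34.3% lay above those from strength (26.1% and 28.9%). With 3 to 8 they lay below in each case, from 26.4% (28.2%) with 3 through 24.5% (34.7%) with 6, the lowest, to 31.5% (39.2%) of the 89 peaks with 8. Only 3 peaks had 9 other targets, and 2 of them were kept.

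**Figure D3:**
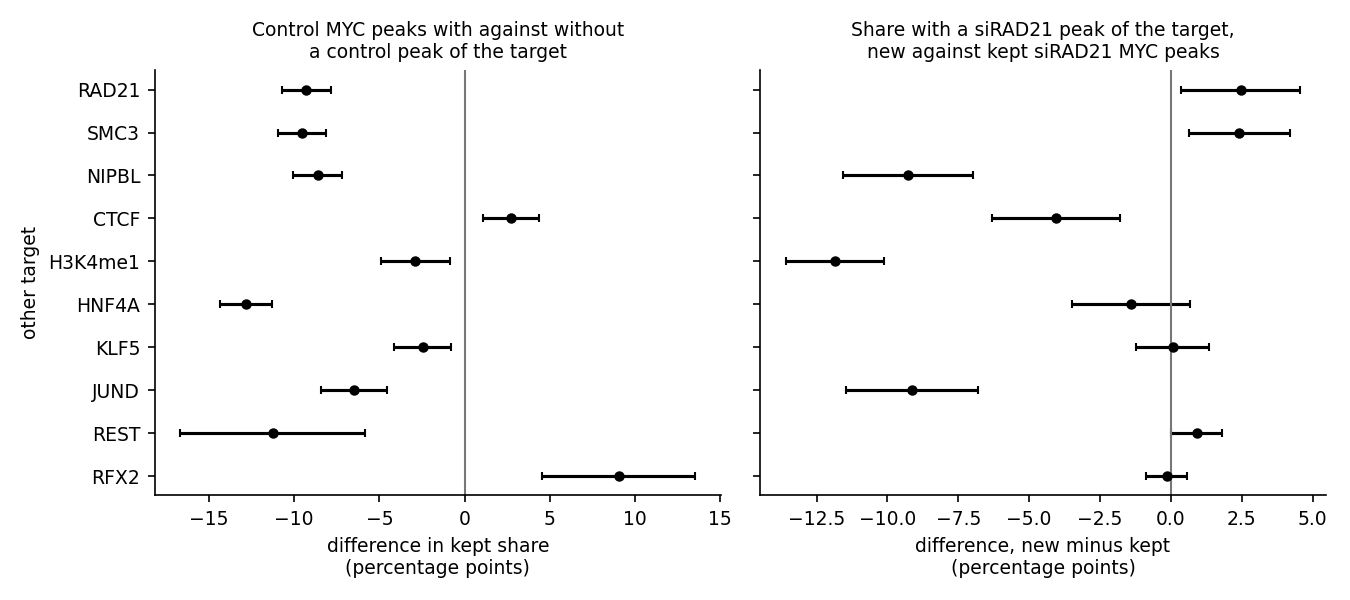
Differences in percentage points within 5 strata of strength, with 95% intervals. Left, the kept share of control MYC peaks with minus without a control peak of each target, lowest for HNF4A (−12.8) and highest for RFX2 (9.04). Right, the share with a siRAD21 peak of each target at new minus kept siRAD21 MYC peaks, lowest for H3K4me1 (−11.9).

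What else was lost or kept at MYC sites was read from the siRAD21 lists of the other targets. MYC was kept more often where the other target was also kept. Among MYC peaks with a control NIPBL peak, those with a siRAD21 NIPBL peak were kept at 60.0% and those without at 16.1%, a difference at like strength of 37.2 (34.4 to 40.1). For JUND the shares were 46.0% and 10.6% (30.4, 26.8 to 34.0), and for HNF4A 32.7% and 11.3% (20.1, 17.2 to 22.9). For KLF5 they were 51.1% and 28.3% (interval of the difference 15.3 to 24.7). SMC3 gave 16.0 (13.2 to 18.9), H3K4me1 13.8 (11.8 to 15.9), RAD21 13.2 (10.7 to 15.8) and CTCF 5.35 (2.28 to 8.42). The intervals of REST and RFX2 held 0. These differences were computed in the 5 strata of p alone, not in finer strata or strata of tags. Strength may therefore not be fully matched. For NIPBL the median −10 × log10 p was 136 with and 91.6 without the siRAD21 peak. The MYC peak was therefore more often found again together with its neighbours at 8 of 10 targets, and among these RAD21 and CTCF had the smallest differences. All lists except those of CTCF and RFX2 were called against the same pair of rabbit IgG libraries, so these lists share their background.

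Many MYC sites gained a siRAD21 peak of a target that had none there in the control, and MYC was kept more often at those. Of 755 control MYC peaks with RAD21 peaks only under RAD21 siRNA, 75.5% were kept, against 27.5% of those with RAD21 under neither (41.3 at like strength, 38.2 to 44.5). For JUND, 59.9% of 3893 such sites were kept, against 13.4% (39.8, 38.0 to 41.6), and for NIPBL 69.5% of 1441, against 21.3% (38.4, 35.8 to 41.1). The intervals of all 10 targets lay above 0. The differences were smallest for the targets called against goat IgG, CTCF at 17.3 (14.1 to 20.5) and RFX2 at 10.4 (2.16 to 18.6), whereas those called against the same rabbit IgG as MYC ranged from 22.5 for REST to 41.3 for RAD21. The part of the shared IgG in these differences was not tested. In the siRAD21 lists as a whole, JUND overlapped 71.2% of kept and 21.8% of lost MYC sites, NIPBL 47.5% and 10.5%, RAD21 27.5% and 12.9%, and HNF4A 26.5% and 12.3%.

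Lost MYC sites were mostly not empty. A siRAD21 peak of at least 1 of the 10 other targets lay at 89.1% of them (88.4 to 89.7). Without H3K4me1 the share was 50.5% (49.5 to 51.5), and H3K4me1 was the sole target found at 38.6%. At kept sites, 88.9% (87.8 to 89.8) had a siRAD21 peak of a target other than H3K4me1. H3K4me1 was found again at most lost sites, with a peak under both siRNAs at 7422 of 9659, and 866, 8.97%, had it only under control siRNA. NIPBL (36.5%), SMC3 (34.1%), RAD21 (24.3%), KLF5 (23.0%) and HNF4A (18.4%) had a control peak and no siRAD21 peak at the lost sites named by those shares. At kept siRAD21 MYC peaks the same shares were 16.8%, 22.7%, 13.4%, 21.9% and 5.62%, so that of KLF5 was nearly equal. The siRAD21 libraries of these targets were shallower than control, at depth ratios from 0.352 for NIPBL to 0.615 for RAD21. CTCF was absent only under RAD21 siRNA at 7.87% of lost sites, close to the 7.62% of kept siRAD21 MYC peaks. It had a peak under both siRNAs at 1668 lost sites.

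**Figure D4:**
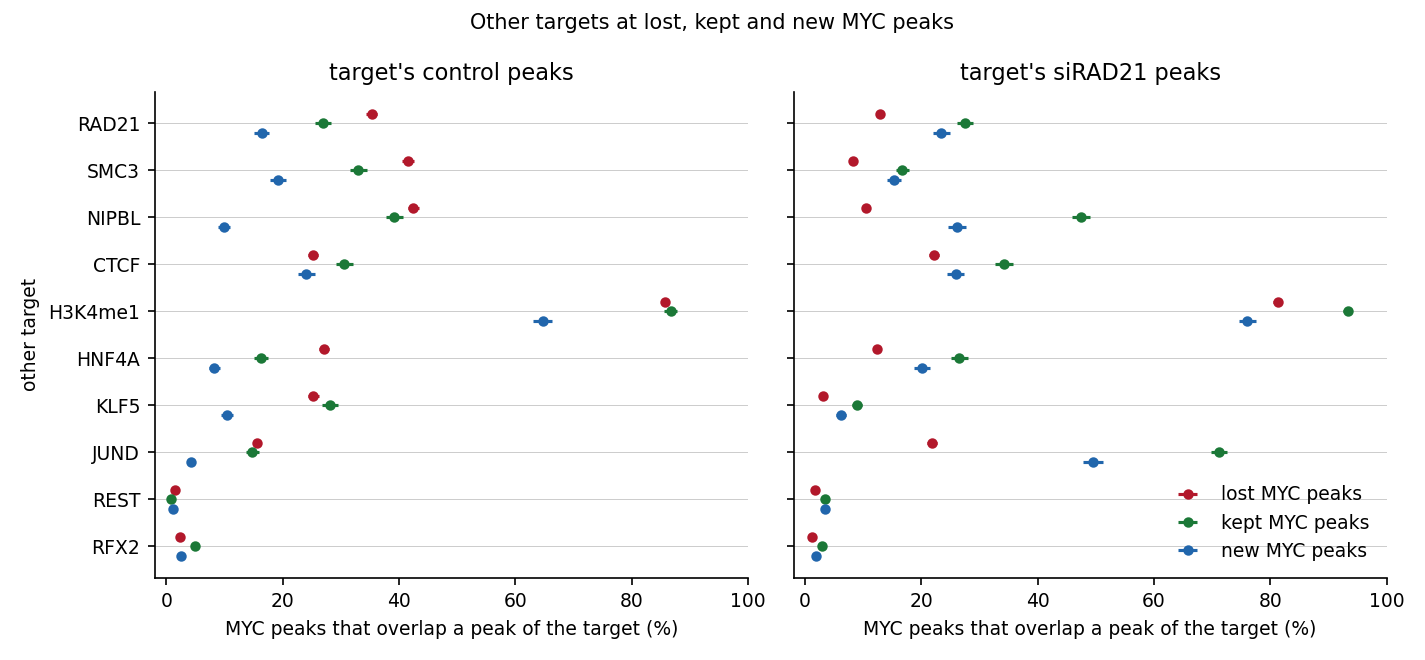
Share of lost, kept and new MYC peaks (colours) that overlap a peak of each other target, from the target's control list (left) and its siRAD21 list (right), with 95% Clopper-Pearson intervals, mostly narrower than the points. JUND lies at 71.2% of kept, 49.5% of new and 21.8% of lost MYC peaks in its siRAD21 list, against 14.7%, 4.18% and 15.6% in its control list.

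At new MYC peaks, most of the other targets were more frequent in their siRAD21 list than in their control list. In the control lists, JUND lay at 4.18% of new peaks, NIPBL at 9.86%, HNF4A at 8.27% and RAD21 at 16.4%. In the siRAD21 lists the shares were 49.5%, 26.0%, 20.1% and 23.4%. H3K4me1 (64.7% and 76.0%), REST (1.19% and 3.42%) and CTCF (24.1% and 25.9%) were also more frequent at new peaks in their siRAD21 lists. SMC3 (19.1% and 15.2%), KLF5 (10.4% and 6.11%) and RFX2 (2.50% and 1.86%) were less frequent there. The filtered depth of the siRAD21 library relative to control was 2.02 for JUND but 0.352 for NIPBL, 0.558 for HNF4A and 0.615 for RAD21. At 61.0% of new MYC peaks (59.3 to 62.7) at least 1 other target also had a siRAD21 peak without a control peak, as it did at 74.8% of kept siRAD21 MYC peaks. No control peak of any target lay at 23.3%, and at 13.8% neither siRNA gave a peak of another target. At most new MYC peaks the siRAD21 list of another target thus also held a peak that its control list lacked, but less often than at kept ones. JUND had the largest such share, at 46.1% of new and 59.7% of kept siRAD21 MYC peaks, followed by NIPBL at 21.5% and 25.6%.

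Set against kept siRAD21 peaks of like strength, new MYC peaks had fewer siRAD21 peaks of H3K4me1 (−11.9, −13.6 to −10.1), NIPBL (−9.27, −11.6 to −6.98), JUND (−9.13, −11.5 to −6.79) and CTCF (−4.04, −6.31 to −1.78). They had slightly more of RAD21 (2.46, 0.357 to 4.57), SMC3 (2.42, 0.647 to 4.20) and REST (0.904, 0.00465 to 1.80), and the intervals of HNF4A, KLF5 and RFX2 held 0. These values depended on which peaks entered. With both MYC lists cut at −10 × log10 p of at least 100, new meant no overlap with a control peak of that strength. Of the 2251 siRAD21 peaks of that strength, 40.7% were new in that setting, whereas 483 were new by the main rule. The sign was then the opposite for NIPBL (1.88), CTCF (1.53), H3K4me1 (1.29) and JUND (5.85, 2.56 to 9.14). HNF4A was more frequent at new peaks there (9.10, 4.98 to 13.2). Whether the main values differ between weak and strong peaks was not tested. Without strata, RAD21 (−3.43) and SMC3 (−0.983) were less frequent at new peaks.

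The kept share of control MYC peaks ranged from 20.7% on chromosome 13 to 33.6% on chromosome 16. The ratio of siRAD21 to control peak numbers ranged from 0.408 on chromosome X to 0.597 on chromosome 19. Given the strength of their peaks, 3 of the 23 chromosomes with at least 50 control peaks, 13%, had a kept share whose interval did not hold the expected value. Chromosome 1 kept 433 of 1354, 32.0% (29.5 to 34.5, expected 29.2%). Chromosome 10 kept 148 of 665, 22.3% (19.1 to 25.6, expected 27.6%), and chromosome 13 kept 61 of 295, 20.7% (16.2 to 25.8, expected 27.0%). HNF4A lay at 24.0% of control MYC peaks in the whole list, at 30.8% on chromosome 10, 24.1% on chromosome 13 and 26.4% on chromosome 1. With kept defined by summits within 250 bp, the interval of chromosome 1 held its expected share (1.98 points above, −0.305 to 4.37), and chromosome 7 lay below its own (−4.26, −7.09 to −1.14). None of the 3 stood apart with both MYC lists cut at −10 × log10 p of at least 100, and chromosome 10 then lay 0.500 points above its expected share. Kept there meant overlap with a siRAD21 peak of that strength. By that rule 23.9% of the 5551 control peaks of that strength were kept, whereas 2552 of them were kept by the main rule.

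**Figure D5:**
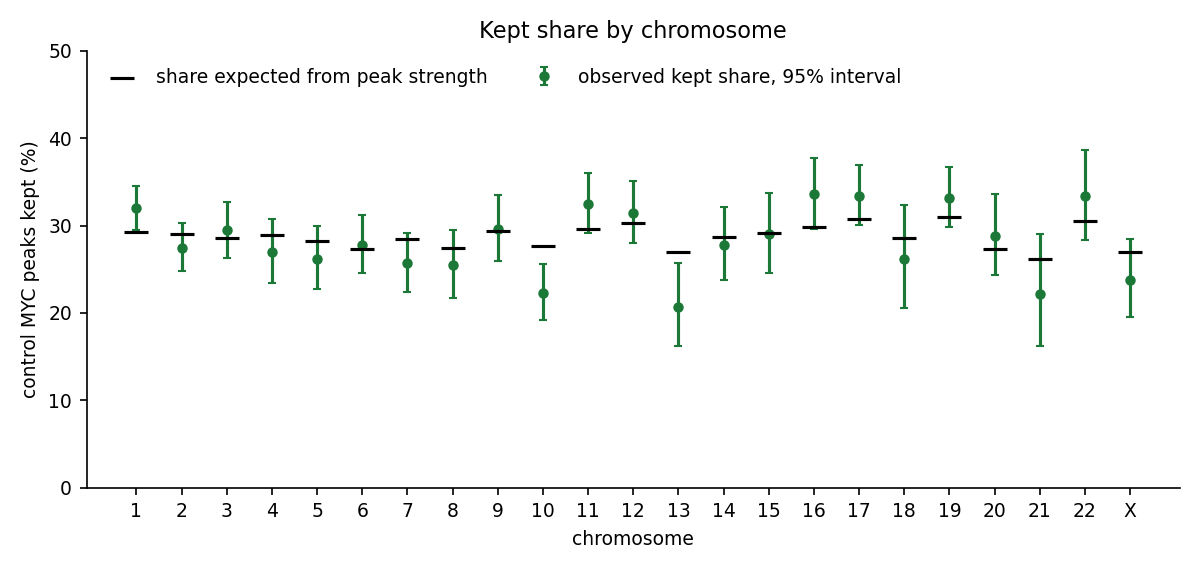
Share of control MYC peaks that were kept on each chromosome (y axis, percent), with its 95% Clopper-Pearson interval, and the share expected from the genome-wide kept share of each stratum of strength (dash). Chromosome 1 lies above its expected share, chromosomes 10 and 13 lie below, and the other 20 hold it within their intervals.

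MYC was last set beside HNF4A, KLF5 and JUND, other factors whose lists were called against the same IgG libraries. Their values share those controls and are given side by side. HNF4A kept 33.4% of 11122 peaks, KLF5 10.2% of 7791 and JUND 35.1% of 4678, where MYC kept 28.9%. New peaks made up 47.3% of the siRAD21 list of HNF4A, 54.9% of KLF5 and 86.7% of JUND, each above the 45.1% of MYC. The median tag ratio in kept pairs was 0.378 for HNF4A, 0.180 for KLF5 and 1.50 for JUND, at ratios of filtered depth of 0.558, 0.355 and 2.02. Divided by those depth ratios, the medians were 0.678, 0.506 and 0.743, and that of MYC was 0.464, the lowest of the 4. In all 4 factors kept peaks were wider than lost ones, by 1.39 times for MYC, 1.29 for HNF4A, 1.37 for KLF5 and 1.28 for JUND.

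The lower kept share at HNF4A and cohesin sites was not seen to the same degree in these factors. At HNF4A sites the difference at like strength was −12.8 for MYC, 0.671 (−0.967 to 2.31) for KLF5 and 6.70 (3.65 to 9.75) for JUND. The MYC value was lower than that of KLF5 by 13.5 points and than that of JUND by 19.5 points. KLF5 kept 10.2% of all its peaks and MYC 28.9%, so a difference in points has less room below 0 for KLF5. At RAD21 sites the difference was −9.28 for MYC, −3.32 (−5.01 to −1.63) for HNF4A, −1.98 (−3.38 to −0.581) for KLF5 and 2.71 (−0.166 to 5.59) for JUND. Within strata of tags that of MYC was −4.35 (−5.76 to −2.94), a setting run for MYC alone. Control MYC peaks lay at 29.4% of HNF4A, 45.6% of KLF5 and 44.7% of JUND control peaks, so the lists are not independent. Each factor also was 1 library per siRNA, and the gaps between factors were not tested. NIPBL sites gave −8.62 for MYC, −2.90 (−4.50 to −1.30) for HNF4A, 0.494 (−0.912 to 1.90) for KLF5 and 12.4 (9.58 to 15.2) for JUND. The control JUND list held no peak with an FDR under 5%, and the filtered depth of its siRAD21 library was 2.02 times that of control. The reverse view was not symmetric. HNF4A and KLF5 peaks with a control MYC peak differed from others of like strength by intervals that held 0 (1.21, −0.473 to 2.90, and 0.487, −0.858 to 1.83), while JUND peaks with MYC were kept more often (18.3, 15.6 to 21.1).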

How the data were processed

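ChIP-seq peak lists of 11 targets under control and RAD21 siRNA were used, 1 library each, all on hg18. The submitters' processing notes name CASAVA 1.4, BWA and MACS 1.4. Per the file headers, the authors called peaks in each library alone with MACS 1.4.0rc2 against IgG of the same siRNA and antibody host, with a p cutoff of 1e-05, 1 tag kept per position and the smaller dataset scaled to the larger. The alignment files are named as merged in the headers, and what was merged is not given in the sources used here.

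Beside its position and summit, each deposited peak has a count of tags, a score (−10 × log10 p), a fold enrichment (a linear ratio) and an FDR in percent, per the file headers. Rows have 10 columns and the header 9 names. The column without a name was taken as the FDR, since as many of its values lie under 5 as the labels count peaks at that FDR. These values are the authors' own, and were used to describe, rank or filter peaks.

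Overlaps, strata and differences were computed in Python 3.11.15 with numpy 2.4.6, pandas 2.3.3 and scipy 1.17.1, and the code was tested on simulated data. A target was present at a MYC peak where its peak overlapped by 1 bp. Differences at like strength are Mantel-Haenszel differences over 5 strata of −10 × log10 p of the list, with Sato 95% intervals. "From strength" is the share a group would have with the kept share of each stratum in the whole list. Tags are not independent molecules, and peaks of a list are not replicates of a condition. The named regions are the 6 strongest kept, 8 strongest lost and 8 strongest new peaks, 4 split and 4 widest peaks, and the 4 highest and 4 lowest tag ratios, of which some are printed. No sequence was read, because the genome tables at hand are of another build. Members, lists and tests were chosen with earlier results of these data known.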

Additional observations from a re-analysis of the deposited data

How the results depend on the processing

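No paired analysis was possible because each group is 1 library. Of 45 recomputed main values 15 stayed within their interval (for counts, within 1.5 times) and 30 moved. The kept share was 22.6% by summits within 250 bp, 6.15% at an FDR under 5%, 23.9% at −10 × log10 p of at least 100 and 41.0% with equal numbers of the strongest peaks, and the new share 57.8%, 10.8%, 40.7% and 58.3%. The ratio of peak numbers was 0.0689 at that FDR and 0.406 at that p. Kept to lost width was 1.30 by summits, 1.25 at that p and 1.25 with equal numbers, and tags 2.10, 1.93 and 1.81. New to kept width was 0.788 by summits and 0.880 at that p, and tags 0.590 and 0.672. The tag ratio in kept pairs was 0.464 at that p, 0.464 with tags scaled to filtered depth and 0.634 per kb. A stricter p or FDR was applied to both lists, so kept and new were redefined against the cut list. By construction this leaves fewer peaks to overlap. For the rest the cause was not tested.

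Of 10 targets, 8 had an interval of the kept difference wholly below 0, and 5 without strata. The intervals of HNF4A, RAD21, SMC3 and NIPBL lay below 0 in every setting run. The sign was the opposite for CTCF at that p (−0.583), within strata of tags (−0.326) and by the target's summit (−0.566), and for H3K4me1 (1.52) and KLF5 (3.04) without strata. Of new against kept peaks, 4 targets had an interval wholly below 0, and 2 without NIPBL and JUND, a setting chosen after seeing the data, 0 at that p, 8 without strata and 2 by the target's summit. Signs turned for HNF4A by summits (2.74), at that p for NIPBL (1.88), CTCF (1.53), H3K4me1 (1.29), HNF4A (9.10) and JUND (5.85), and without strata for RAD21 (−3.43), SMC3 (−0.983) and KLF5 (−2.49). Chromosomes apart from their expected share numbered 3, but 0 at that p, where chromosome 10 turned (0.500), and 8 without strata. Depth limits these values through 12 to 883 tags per control peak and 12 to 278 per siRAD21 peak.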
